A study of Mus musculus with 52 samples.

Results

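H3K4me2 and H3K4me1, di- and monomethylation of lysine 4 of histone H3, were compared in the same untreated cells. The comparison rested on 6 of the 52 libraries of the study, 3 ChIP-seq libraries of H3K4me2 and 3 of H3K4me1 from F/F cells, chosen by mark, genotype, and treatment as labelled. F/F cells are mouse embryonic fibroblasts (MEFs), immortalized by the 3T3 method, that carry loxP sites in both alleles of MLL2 and had received no tamoxifen, so MLL2 is still intact. The gene is named Kmt2d in the mouse and encodes a methyltransferase of H3K4. The libraries of a mark were made in independent ChIP-seq experiments on 1 line of cells, and p-values measure the spread between those experiments. A library of each mark is numbered here by its experiment, the numbers following the order of the library labels. H3K4me3 libraries of the same cells (3) served only to sort promoters. A further 6 libraries of FC/FC cells, which had received 1 µM hydroxy-tamoxifen for 24 h to excise MLL2, repeated the comparison in samples outside the choice.

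For each library, the authors deposited RPKM, read counts scaled by feature length and by library total, for each RefSeq transcript with 500 bp added at either end, and peaks called against an H3 library of the same experiment. Reads within transcripts totalled 26714377 to 30528079 in the H3K4me1 and 36376215 to 48504887 in the H3K4me2 libraries. RPKM are relative to this total, and the marks were captured with different antibodies, so that a level says how a mark is spread over genes and not how many nucleosomes carry it. Across 23043 genes, Spearman's correlation was 0.988 to 0.992 between H3K4me1 libraries, 0.993 to 0.995 between H3K4me2 libraries, and 0.841 to 0.856 between libraries of different marks. In the peak lists, H3K4me1 library 1 stood apart, with 120661 peaks of a median width of 959 bp, against 81444 peaks of 1693 bp and 101056 peaks of 1436 bp in libraries 2 and 3. The main values from the peak lists are therefore also given without it.

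Lysine 4 of histone H3 can carry up to 3 methyl groups, added by the MLL and SET1 enzymes and removed by demethylases, among them those of the KDM1 and KDM5 families. Trimethylation is best known from the start sites of active and CpG-rich genes. Monomethylation is best known from enhancers and from the borders of active promoters, and dimethylation is found at both kinds of element. In fibroblasts, genes of the extracellular matrix and the actin cytoskeleton are among those with many such enhancers.

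The genes at the ends of the comparison differed in the sequence around their annotated starts. Shown are 300 bp, from 250 bases before to 50 after the TSS, read from GRCm38, the assembly that mm10 names, in the direction of transcription and with CG dinucleotides in capitals. The first 3 are the named genes with the largest excess of H3K4me2 among those tested. Hoxa13, a homeobox gene of limb and genital development, has its window at chr6:52260831-52261130 (minus strand). The window of Rnasek, an RNase gene, lies at chr11:70239803-70240102 (minus strand), and that of Hist2h2ab, a gene for histone H2A, at chr3:96219666-96219965 (plus strand).
Hoxa13: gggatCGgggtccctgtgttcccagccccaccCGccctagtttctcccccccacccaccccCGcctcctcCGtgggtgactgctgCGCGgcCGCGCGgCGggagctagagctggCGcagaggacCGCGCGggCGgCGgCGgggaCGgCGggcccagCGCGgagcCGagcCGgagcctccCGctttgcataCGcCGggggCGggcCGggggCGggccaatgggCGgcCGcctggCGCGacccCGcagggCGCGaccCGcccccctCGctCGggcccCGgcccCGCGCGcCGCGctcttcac
Rnasek: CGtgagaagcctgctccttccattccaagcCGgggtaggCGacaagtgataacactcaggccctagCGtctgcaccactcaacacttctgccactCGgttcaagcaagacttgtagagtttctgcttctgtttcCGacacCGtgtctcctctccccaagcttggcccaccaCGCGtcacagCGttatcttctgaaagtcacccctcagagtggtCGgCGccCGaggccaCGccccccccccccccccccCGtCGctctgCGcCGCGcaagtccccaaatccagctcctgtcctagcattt
Hist2h2ab: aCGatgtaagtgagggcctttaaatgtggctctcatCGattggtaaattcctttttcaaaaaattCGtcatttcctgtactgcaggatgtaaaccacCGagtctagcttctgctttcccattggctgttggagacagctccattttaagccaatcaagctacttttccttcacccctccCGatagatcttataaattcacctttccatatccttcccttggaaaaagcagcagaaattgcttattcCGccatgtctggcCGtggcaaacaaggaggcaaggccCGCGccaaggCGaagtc
The other 3 are the named genes with the largest excess of H3K4me1 among those tested. Olfr455, an olfactory receptor gene, has its window at chr6:42538971-42539270 (minus strand). The window of Cpa1, the gene for the pancreatic enzyme carboxypeptidase A1, lies at chr6:30638971-30639270 (plus strand), and that of Ccl17, a chemokine gene, at chr8:94810203-94810502 (plus strand).
Olfr455: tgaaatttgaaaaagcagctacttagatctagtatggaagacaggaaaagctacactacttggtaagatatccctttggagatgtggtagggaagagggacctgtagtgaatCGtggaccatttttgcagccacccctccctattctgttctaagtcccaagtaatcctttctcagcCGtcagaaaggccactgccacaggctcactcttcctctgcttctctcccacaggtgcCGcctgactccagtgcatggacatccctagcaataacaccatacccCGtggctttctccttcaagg
Cpa1: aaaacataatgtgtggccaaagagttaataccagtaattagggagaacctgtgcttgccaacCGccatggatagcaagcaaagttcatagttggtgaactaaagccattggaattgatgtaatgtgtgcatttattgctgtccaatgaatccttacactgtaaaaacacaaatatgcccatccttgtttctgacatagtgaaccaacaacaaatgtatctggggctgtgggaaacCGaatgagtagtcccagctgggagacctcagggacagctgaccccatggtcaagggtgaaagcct
Ccl17: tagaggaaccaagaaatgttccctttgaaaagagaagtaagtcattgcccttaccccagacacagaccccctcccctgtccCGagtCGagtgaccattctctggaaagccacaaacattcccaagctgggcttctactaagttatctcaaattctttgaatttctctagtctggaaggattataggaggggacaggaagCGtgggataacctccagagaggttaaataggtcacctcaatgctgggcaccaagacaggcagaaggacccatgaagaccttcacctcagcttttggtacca
Hoxa13 and Olfr455 exceeded 1 RPKM only in their higher mark and were tested only through it, which fixed their direction. The first 3 genes had an H3K4me3 peak within 1 kb of the TSS in all 3 H3K4me3 libraries, and the other 3 genes in none. The Hoxa13 window holds 45 CG dinucleotides, the Rnasek window 19, and the Hist2h2ab window 10. Those of Olfr455, Cpa1, and Ccl17 hold 4, 2, and 3. In the Hist2h2ab and Olfr455 windows, the letters ATG, those of a start codon, stand directly at the annotated TSS. Transcription of these genes may start elsewhere, so their windows need not hold the promoter.

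At start sites, the marks were laid out differently. H3K4me2 peaks covered the TSS base of 57.6% ± 0.99 of 23043 genes (SD, n = 3 libraries), and H3K4me1 peaks that of 16.3% ± 2.2. The shares were 57.3%, 56.9%, and 58.7% in the H3K4me2 libraries and 13.8%, 16.8%, and 18.2% in the H3K4me1 libraries. They did not overlap, and the difference was 41.3 percentage points (exact two-sided permutation p = 0.1, the smallest that 3 libraries against 3 allow). Without H3K4me1 library 1 it was 40.1 percentage points.

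Promoters that had an H3K4me3 peak within 1 kb of the TSS in all 3 H3K4me3 libraries (12269 genes) showed the layout most clearly. H3K4me2 peaks covered 95.4% of their start sites and remained above 90% from 500 bp upstream, where the share was 96.3%, to 1000 bp downstream, where it was 94.0%. H3K4me1 peaks had 2 maxima, of 51.0% ± 6.4 at 700 bp upstream and of 57.4% ± 6.7 at 1300 bp downstream (SD, n = 3). Between them lay a dip to 16.7% ± 2.8 at 150 bp downstream of the TSS, with 13.6%, 18.7%, and 17.9% in the libraries. All 3 libraries showed it. The H3K4me1 maximum downstream lay where the coverage by H3K4me3, 88.9% at 1000 bp, fell to 34.1% at 2000 bp. At 5000 bp downstream, H3K4me1 covered 20.8% of the genes and H3K4me2 15.4%, the reverse of the order at the start site. At the 10258 promoters with no H3K4me3 peak in any library, the dip was missing: H3K4me1 peaks covered 8.0% ± 0.51 of the start sites and H3K4me2 peaks 11.2% (n = 3).

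**Figure D1:**
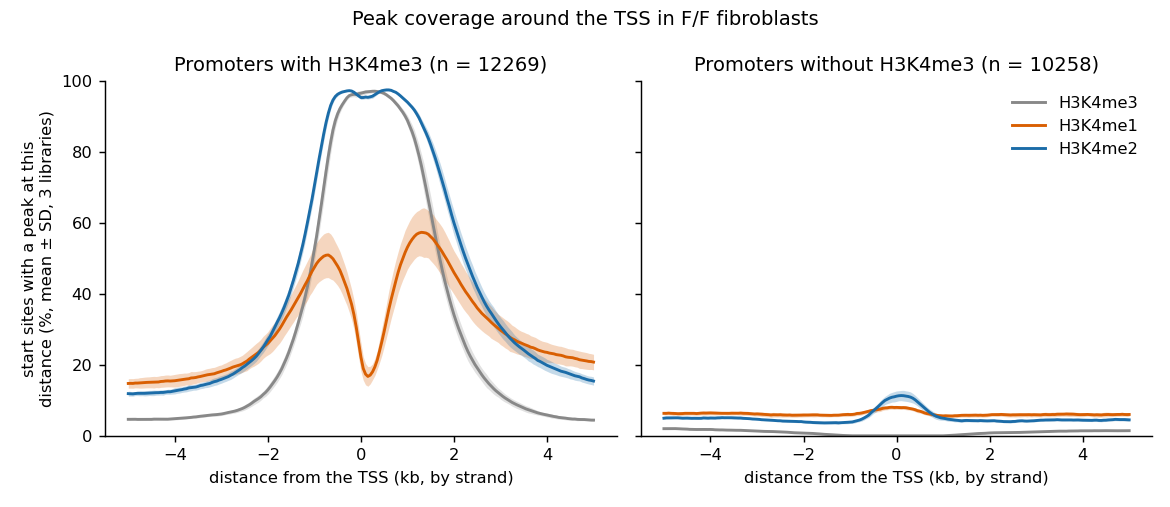
Share of genes with a peak at each distance from the TSS (x axis, kb, by strand; y axis, percent of genes) in F/F fibroblasts, for promoters with H3K4me3 (left, 12269 genes) and without (right, 10258 genes). Lines are means and bands SDs of 3 libraries for H3K4me1 (orange), H3K4me2 (blue), and H3K4me3 (grey). On the left, H3K4me1 dips to 16.7% at 150 bp downstream of the TSS, while H3K4me2 and H3K4me3 stay high across the start site.

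Counted over a window of 1 kb on each side of the TSS, which takes in the H3K4me1 shoulders, the marks came closer. H3K4me2 peaks reached 62.6% ± 0.79 and H3K4me1 peaks 49.5% ± 3.5 of the promoters (SD, n = 3, exact permutation p = 0.1). With a window of 500 bp, the difference grew from 13.1 to 23.1 percentage points. Promoters with both marks in all libraries numbered 8901, of which 91.0% had H3K4me3 in all 3 of its libraries. H3K4me2 in all 3 and H3K4me1 in none was found at 1681 promoters, 60.7% of them with H3K4me3. The opposite case, H3K4me1 in all 3 and H3K4me2 in none, was found at 186, and 0 of these had an H3K4me3 peak in all 3 libraries. Neither mark was called at 7741 promoters.

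Per gene, the levels were compared as log2(RPKM + 0.1) over the longest transcript of each symbol, a scale that understates differences of genes with low RPKM. Of 23043 genes, 11159 passed a minimum of 1 RPKM, exceeded in 3 or more of the 6 libraries, and were tested with limma (Benjamini-Hochberg adjusted p under 0.05 over the genes tested). H3K4me2 was higher at 8116 genes, 72.7% of those tested, and H3K4me1 at 2414, 21.6% of those tested, so that 94.4% were called in either direction. The libraries of the marks did not overlap at 10569 genes, 94.7% of those tested. A difference of over 1 (log2) was seen for 5416 genes with more H3K4me2 and for 840 with more H3K4me1. These counts depend on the scale, being 3443 and 85 with a pseudocount of 1, 2601 and 2097 with libraries centred, and 1949 and 2305 with quantile normalization, where their order turned. With no filter they were 5563 and 3445. The median difference, H3K4me2 minus H3K4me1, was 0.95 (log2), and the middle 90% of the genes ran from −1.19 to 2.53. A call alone therefore says little about a gene here, and sizes are given throughout.

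The filter bears on these counts, since a gene could pass it through the mark in which it is high. Only 6121 of the genes were above 1 RPKM in all 6 libraries. Among those, H3K4me2 was higher at 4671 and H3K4me1 at 910, with 3078 past a difference of 1 in favour of H3K4me2 and 76 in favour of H3K4me1. With no filter, H3K4me2 was higher at 9466 and H3K4me1 at 10622 of 23043 genes, and the median difference was −0.15. The share of calls with more H3K4me2 fell from 77.1% to 47.1%. Centring each library on its median over the genes tested lowered every difference by 0.71 (log2) and left 5974 genes higher in H3K4me2 and 4138 higher in H3K4me1 (59.1% of calls with more H3K4me2). Quantile normalization left 5563 and 4399 (55.8%). The order of genes along the difference does not depend on the centring, while the gene at which the difference is 0 does. Signs are given on the uncentred scale unless stated.

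Genes with an H3K4me3 promoter and genes without lay on opposite sides. The median over the 12269 genes with H3K4me3 was 0.97 ± 0.003 for H3K4me2 and 0.22 ± 0.02 for H3K4me1 (log2(RPKM + 0.1), SD, n = 3), a difference of 0.75. Over the 10258 genes without it, the medians were −2.31 ± 0.03 and −1.33 ± 0.05, a difference of −0.98. These levels are low, and 7719 of these genes had a promoter peak of neither mark in any library. RPKM are not set against H3, and the part of background reads in this difference was not tested. In both classes the libraries of the marks did not overlap (exact permutation p = 0.1 each). H3K4me2 had the higher mean at 76.7% of the genes with H3K4me3 and at 7.92% of the genes without. With the libraries centred, the differences were 0.04 and −1.69. The gap of 1.73 between the classes is not touched by centring.

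At H3K4me3 promoters the difference went with the length of the transcript, over the whole of which RPKM averages the peaks at its start. From transcripts of 250 bp to 2 kb up to those over 100 kb, the median H3K4me2 level fell from 3.80 ± 0.04 to −0.61 ± 0.01 (log2(RPKM + 0.1), SD, n = 3). H3K4me1 went only from 1.05 ± 0.04 to 0.02 ± 0.02. The difference was 2.74 in the shortest class (460 genes), 2.14 at 2 to 5 kb, 1.66 at 5 to 10 kb, 1.24 at 10 to 20 kb, and 0.61 at 20 to 50 kb. It was −0.06 at 50 to 100 kb and −0.62 over 100 kb (1431 genes), where 8.04% of the genes had the higher mean in H3K4me2. The length at which the marks cross depends on the scaling: with libraries centred, the difference was 0.53 at 10 to 20 kb, −0.10 at 20 to 50 kb, and −0.77 at 50 to 100 kb. At genes without H3K4me3, H3K4me1 had the higher median in all 7 length classes, with differences from −0.46 to −1.19. Both marks were low there, and the part of background reads was not tested. The same promoters sorted by their own H3K4me3 level gave median differences of −0.30, 0.43, 1.13, and 1.96 from the lowest to the highest quartile, and −1.01, −0.28, 0.42, and 1.25 with libraries centred. Length moved with this order, from a median of 80816 bp in the lowest to 5644 bp in the highest quartile, and its part was not tested. Within gene bodies, from 2 kb after the TSS to the transcript end, H3K4me1 peaks covered a median of 8.67% ± 1.4 of the length and H3K4me2 peaks 5.45% ± 0.65 (SD, n = 3, 10544 genes with H3K4me3 and over 5 kb, exact permutation p = 0.1). This difference of −3.22 percentage points was −1.55 among peaks with a score of at least 100 and −0.64 with equal numbers of top-scoring peaks (exact permutation p = 0.3 and 0.6).

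**Figure D2:**
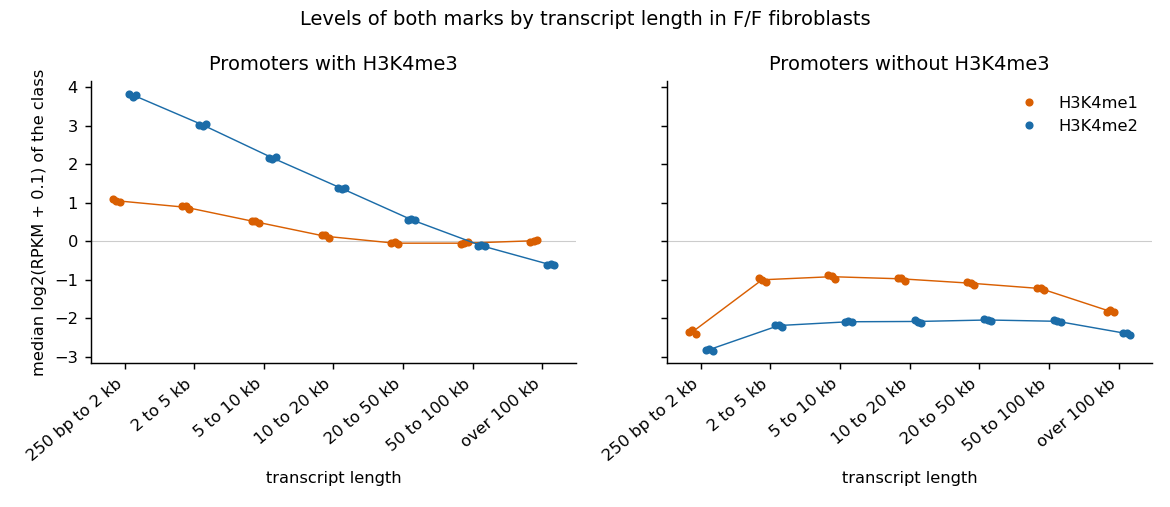
Median log2(RPKM + 0.1) of H3K4me1 (orange) and H3K4me2 (blue) by transcript length (x axis) for genes with H3K4me3 at the promoter (left) and without (right). Each point is 1 library and lines join the means of 3. On the left the H3K4me2 median falls from 3.80 to −0.61 and crosses H3K4me1 at 50 to 100 kb on this uncentred scale (with libraries centred, the difference is below 0 from 20 to 50 kb on). On the right H3K4me1 has the higher median throughout, at low levels of both marks.

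Among genes with a mean above 1 RPKM in the lower mark, the largest excess of H3K4me2 was at Rnasek (chr11:70238123-70239852), which had 27.7, 25.2, and 27.4 RPKM of H3K4me2 and 1.12, 1.16, and 0.924 RPKM of H3K4me1. The difference was 4.53 ± 0.08 (log2, SE, limma adjusted p = 1.34e-10). The counted window of Rnasek also holds the start of 0610010K14Rik, and reads of that start cannot be told apart from its own. Of the 10 genes with the largest excess, 6 encode histones. Hist1h1e, for a linker histone that binds the nucleosome from outside, had 20.1, 19.7, and 19.0 RPKM of H3K4me2 against 0.630, 1.6, and 0.919 of H3K4me1, with a difference of 4.19 ± 0.24. Hist2h4, for histone H4, had 24.9, 23.2, and 22.9 against 1.33, 1.46, and 1.11 RPKM. Hist2h2ac, Hist1h1d, Hist1h1b, and Hist1h3g followed with differences of 3.97, 3.94, 3.92, and 3.89. Hist2h2ac and Hist2h2ab lie side by side and their counted windows overlap, so that they are not separate measurements. The window of Hist2h2ac also holds the start of Hist2h2be.

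The other 3 were Hoxa9, Ubb, and Rrs1. Hoxa9, a homeobox gene of the trunk and limbs, had 22.5, 21.6, and 21.0 RPKM of H3K4me2 and 1.35, 1.31, and 1.06 RPKM of H3K4me1. Ubb encodes ubiquitin and Rrs1 a factor of ribosome assembly, and their differences were 3.93 ± 0.08 and 3.81 ± 0.05 (log2, SE). The counted window of Ubb also holds the start of Gm1821. Transcripts of these 10 genes were 384 bp (Hist2h4) to 4274 bp (Hoxa9) long, and all 10 had H3K4me3 at the promoter. H3K4me1 peaks were nevertheless called within 1 kb of the TSS in all 3 libraries at 5 of them, Hist2h4, Hoxa9, Hist2h2ac, Hist1h1d, and Ubb. All 10 kept their direction and call with libraries centred or quantile-normalized.

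The genes with the largest excess of H3K4me1 had another character. Cpa1 (chr6:30639221-30645361) had 5.70, 4.55, and 4.82 RPKM of H3K4me1 and 1.43, 1.13, and 1.59 RPKM of H3K4me2, a difference of −1.79 ± 0.12 (log2, SE, limma adjusted p = 1.41e-07). Ccl17 had 3.67, 3.72, and 3.499 against 1.15, 0.844, and 1.02 RPKM, and S100b, for a calcium-binding protein of glia, 5.54, 5.54, and 5.41 against 1.84, 1.58, and 1.42 RPKM. Sstr4, a somatostatin receptor gene, differed by −1.66 ± 0.14, and Il2rb, for a chain of the interleukin 2 receptor, by −1.63 ± 0.05. Israa, Foxs1, Ctsw, Lenep, and BC100451 followed with −1.62, −1.48, −1.47, −1.46, and −1.44. Foxs1 encodes a forkhead transcription factor and Ctsw a protease of lymphocytes. None of the 10 had an H3K4me3 peak within 1 kb of the TSS in any library, and all 10 had H3K4me1 peaks there in all 3. H3K4me2 peaks were also called in all 3 libraries at Cpa1, S100b, and Ctsw, and in none at BC100451. On the uncentred scale the differences were smaller than at the other end, where the smallest of the 10 was 3.81. That contrast depends on the scaling. With quantile normalization these 10 ran from −2.595 (Ctsw) to −3.04 (Cpa1), and the 10 at the other end from 2.54 (Rrs1) to 3.29 (Rnasek).

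**Figure D3:**
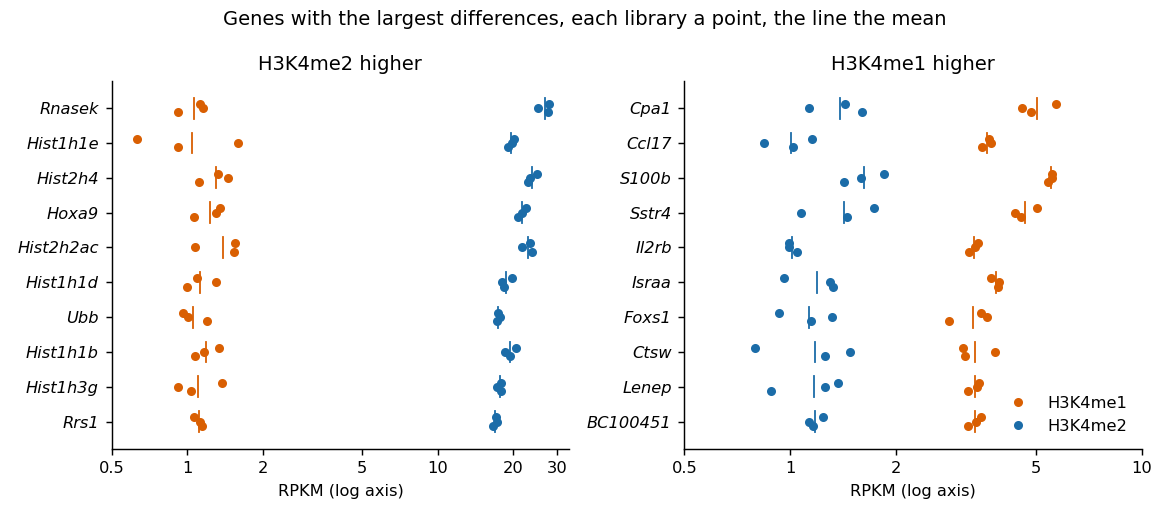
RPKM (x axis, log scale) of H3K4me1 (orange) and H3K4me2 (blue) at the 10 genes with the largest difference in each direction in F/F fibroblasts, with a mean above 1 RPKM in the lower mark. Points are libraries and vertical lines means of 3. Genes were chosen among those whose libraries do not overlap between the marks. H3K4me2 is at 16.6 RPKM or more at the genes on its side, and H3K4me1 between 2.84 and 5.70 RPKM at the genes on the other.

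Counts of gene groups are to be read against all genes tested, of which 72.7% were higher in H3K4me2 and 21.6% in H3K4me1, and a member under 1 RPKM in all libraries of the lower mark passed the filter through the other mark, which fixed its direction. All 76 genes for cytosolic ribosomal proteins were higher in H3K4me2, with a median difference of 2.30 (log2) against 0.95 over all genes tested. With libraries centred 76 of 76 were higher, and with quantile normalization 63 were higher and 5 lower. Rpl41 differed most, with 31.5, 27.1, and 28.5 RPKM of H3K4me2 and 2.07, 1.91, and 1.99 RPKM of H3K4me1. Its counted window also holds the start of Zc3h10. The median transcript length of this group was 2937 bp, against 15616 bp over all 23043 genes. Replication-dependent histone genes, which are shorter still (median 483 bp), were higher in H3K4me2 at all 58 tested of 60, with a median of 3.35. Hist2h2ab, the highest, had 22.1, 20.6, and 21.4 RPKM of H3K4me2 and 1.02, 0.627, and 1.16 RPKM of H3K4me1. The near-identical histone genes share sequence, and how reads were split between copies is not given in the sources used here.

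Genes for nuclear-encoded subunits of the respiratory chain were higher in H3K4me2 at 70 of 73 tested, with 2 higher in H3K4me1, and proteasome genes at 30 of 31, against 72.7% of all genes tested. The exceptions in the first group include Cox6a2, a cytochrome oxidase subunit of heart and skeletal muscle, at −1.25 ± 0.11 (log2, SE). In the second the exception was Psmb7, a catalytic subunit with a transcript of 55861 bp, at −0.44 ± 0.06. Uqcrb and Psmb10 had the largest excess of H3K4me2, 2.70 and 2.95. The counted window of Uqcrb also holds the start of Gm10767. Cox6a2 and Psmb7 were under 1 RPKM in every H3K4me2 library, and Uqcrb in every H3K4me1 library. Each of these passed the filter only through its higher mark, which fixed its direction.

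Immediate early and AP-1 genes, which respond to growth factors within minutes, were higher in H3K4me2 at 27 of 27, with a median of 2.46. Ier3 had 19.2, 18.3, and 20.1 RPKM of H3K4me2 against 1.55, 1.23, and 1.27 of H3K4me1, in a window that also holds the start of Flot1. The group kept 26 of 27 calls with libraries centred, with 0 in the opposite direction, and 23 against 3 with quantile normalization. Actin cytoskeleton genes were higher in H3K4me2 at 18 and in H3K4me1 at 2 of 24, a share with more H3K4me2 near the 72.7% of all genes tested. The counts became 14 against 10 with libraries centred and 10 against 11 with quantile normalization. Actg1, for cytoplasmic gamma-actin, differed by 3.62 ± 0.08 and Cald1, for the actin-binding protein caldesmon with a transcript of 66026 bp, by −0.51 ± 0.05. The window of Actg1 also holds the starts of 0610009L18Rik and Mir6935. Actg1 was under 1 RPKM in every H3K4me1 library, so it passed the filter only through H3K4me2, which fixed its direction.

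Fibroblast matrix genes stood near balance, with 16 of 28 tested higher in H3K4me2, 11 higher in H3K4me1, and a median of 0.30, which turned to 9 against 16 with libraries centred and 7 against 19 with quantile normalization. All 32 members had H3K4me2 and 29 had H3K4me1 peaks at the promoter in all 3 libraries. Thbs1, for the matrix glycoprotein thrombospondin 1, had 10.8, 10.4, and 10.48 RPKM of H3K4me2 against 2.11, 1.77, and 1.95 of H3K4me1. Loxl2, for a collagen crosslinking enzyme, had 0.634, 0.618, and 0.689 against 1.62, 1.499, and 1.57 RPKM and no H3K4me3 peak at the start of its longest transcript. It passed the filter only through H3K4me1, which fixed its direction, and its counted window also holds the start of Mir6950. Mesenchymal transcription factor genes numbered 15 higher in H3K4me2 and 6 higher in H3K4me1 of 23, near the shares over all genes tested (72.7% and 21.6%), and 9 against 11 with libraries centred. Twist1, a basic helix-loop-helix factor of mesenchyme, had 11.9, 11.3, and 11.1 RPKM of H3K4me2 against 0.462, 0.753, and 0.477 of H3K4me1. It passed the filter only through H3K4me2, which fixed its direction. Meox1, a homeobox factor of the somites, had 1.30, 1.04, and 1.37 against 3.07, 2.43, and 2.65 RPKM.

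Of 39 Hox genes, which set positional identity along the body axis, 19 were tested. H3K4me2 was higher at 16 and H3K4me1 at 1, against 72.7% and 21.6% of all genes tested. Over all 39 members, tested or not, the median difference was −0.27 (log2). Their median levels were 0.945 RPKM of H3K4me1 and 0.824 RPKM of H3K4me2. Hoxa13 had the largest difference of all 11159 genes tested, with 13.5, 11.8, and 11.8 RPKM of H3K4me2 against 0.420, 0.333, and 0.357 of H3K4me1 (difference 4.73 ± 0.08, log2, SE). Being under 1 RPKM in every H3K4me1 library, it passed the filter only through H3K4me2, which fixed its direction. No H3K4me1 library had a peak within 1 kb of its TSS. Hoxa2, a gene of the same cluster that acts in the hindbrain, had 0.427, 0.294, and 0.302 RPKM of H3K4me2 and 1.07, 1.20, and 1.07 of H3K4me1, with no peak of either mark or of H3K4me3 at the promoter. It passed the filter only through H3K4me1, which fixed its direction. Among 22 tested of 48 factors of other lineages, 20 were higher in H3K4me2, led by Sox2, and 2 in H3K4me1, with Tbx4 lowest at −1.47. With libraries centred the counts were 14 and 5, and the median difference over all 48 members was −0.10 uncentred. Sox2 was under 1 RPKM in every H3K4me1 library and Tbx4 in every H3K4me2 library, so the filter fixed their directions.

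Genes for MLL and COMPASS subunits were higher in H3K4me2 at 12 of 12 tested of 16, against 72.7% of all genes tested, and at 11 with 1 lower when libraries were centred. Cxxc1, whose product binds unmethylated CpG and recruits the SET1 enzymes, had the largest difference at 2.15 ± 0.07 (log2, SE). Kmt2d itself (chr15:98831669-98871205) had 2.55, 2.46, and 2.49 RPKM of H3K4me2 and 0.812, 0.755, and 0.714 RPKM of H3K4me1. It differed by 1.595 ± 0.05 and had H3K4me2 and H3K4me3 but no H3K4me1 peaks at the promoter in the F/F libraries. With less than 1 RPKM in every H3K4me1 library it passed the filter only through H3K4me2, so no test is given. The counted window also holds the start of Prkag1. Of 3 tested genes on a list of KDM demethylase genes, Kdm2a was higher in H3K4me2 by 0.66 ± 0.05 and Kdm1a in H3K4me1 by −0.40 ± 0.06. Kdm1a, under 1 RPKM in every H3K4me2 library, passed the filter only through H3K4me1, which fixed its direction. Kdm2a was at −0.05 with libraries centred, and the median of the 3 went from 0.10 to −0.61.

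Receptor and keratin-associated gene families were low in both marks. Of 1101 olfactory receptor genes, 13 were tested, of which 0 were higher in H3K4me2 and 11 in H3K4me1. Olfr455 had 1.42, 1.94, and 1.29 RPKM of H3K4me1 against 0.239, 0.142, and 0.148 of H3K4me2. The medians over all 1101 were 0.0663 RPKM of H3K4me1 and 0.0325 RPKM of H3K4me2. No vomeronasal receptor gene of 317 and none of 25 long genes of synapses and neural adhesion passed the filter. Keratin-associated genes were higher in H3K4me1 at 6 of 7 tested of 49, with Krtap3-1 lowest at −1.66. A member that passed the filter only through H3K4me1 had to differ in that direction. In lists of other lineages, H3K4me2 and H3K4me1 were higher at 1 and 2 of 5 haematopoietic genes tested of 17, at 0 and 3 of 3 endothelial genes of 12, and at 2 and 3 of 5 epithelial genes of 14. Myogenic genes gave 2 and 0 of 2 tested of 12, neither called with libraries centred, and adipogenic genes 4 and 4 of 8 tested of 11, with a median that went from 0.30 to −0.41 when libraries were centred. Klf1, an erythroid factor, and Cebpd, an early factor of fat cell formation, had the largest excess of H3K4me2 in their lists, 2.02 and 3.42 (log2).

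**Figure D4:**
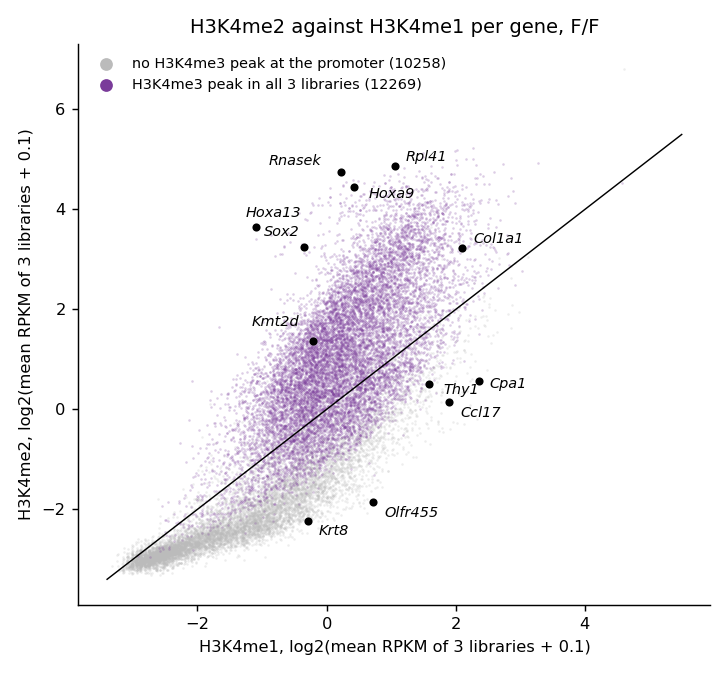
H3K4me2 (y axis) against H3K4me1 (x axis) per gene in F/F fibroblasts, both as log2 of the mean RPKM of 3 libraries plus 0.1. Purple points are genes with H3K4me3 at the promoter (12269), grey points genes without (10258), and the line marks equal values. Most purple points lie above the line and most grey points below it, with Hoxa13 and Olfr455 near the ends.

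Markers of the cell type were checked for both marks. The 10 fibroblast markers had summed levels of 45.7 to 47.9 RPKM of H3K4me2 and 18.9 to 19.96 RPKM of H3K4me1, and 9 of 10 had H3K4me3 at the promoter in all 3 libraries. Vim, for the intermediate filament protein of mesenchyme, had 9.36, 10.3, and 9.75 RPKM of H3K4me2 and 2.25, 2.55, and 2.47 RPKM of H3K4me1. Col1a1, the gene of the major chain of collagen I, had 8.68, 9.45, and 9.71 against 4.32, 4.21, and 4.05 RPKM, a difference of 1.13 that turned to −0.74 with quantile normalization. Col1a2, for the other chain of collagen I, had 2.71, 3.42, and 3.26 against 2.15, 2.58, and 2.93 RPKM. Its libraries overlapped between the marks, its difference of 0.29 ± 0.12 (log2, SE) passed only narrowly (limma adjusted p = 0.036), and it was −0.42 with libraries centred. The exception in the group was Thy1, a surface protein of some fibroblasts, with 1.25, 1.404, and 1.33 RPKM of H3K4me2 against 3.11, 2.74, and 2.81 of H3K4me1, no H3K4me3, and H3K4me1 but no H3K4me2 peaks at the promoter.

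Markers of most other cells had higher sums of H3K4me1 than of H3K4me2. The lists differ in size, so that sums are to be compared only within a list. Outside the neural list, the highest of these markers in H3K4me2, Kdr, had 1.27 RPKM, under the 1.33 of the lowest fibroblast marker. In H3K4me1 the levels were not all low, as Cdh1 had 2.62 RPKM and Col1a2 2.55. Summed over 5 epithelial markers, H3K4me1 was 5.42 to 5.67 and H3K4me2 2.25 to 2.58 RPKM, with H3K4me3 at the promoters of Cdh1 and Epcam. The 5 haematopoietic markers had 3.56 to 3.98 RPKM of H3K4me1 and 1.64 to 1.83 RPKM of H3K4me2, and 0 of 5 had H3K4me3 in all 3 libraries. Endothelial markers (4) had 3.52 to 3.84 and 2.12 to 2.27 RPKM, myogenic markers (3) 2.11 to 2.75 and 0.689 to 0.880 RPKM, and adipogenic markers (3) 3.33 to 3.69 and 1.97 to 2.14 RPKM. The neural list was high in H3K4me2, at 13.0 to 13.6 RPKM against 2.56 to 2.62 of H3K4me1. Sox2, a factor of neural and pluripotent cells, carried most of it, with 9.75, 9.16, and 9.46 RPKM of H3K4me2, 0.672, 0.678, and 0.701 RPKM of H3K4me1, and H3K4me3 in all 3 libraries. Neurod1, Pax6, and Olig2 had 2.14, 1.32, and 0.442 RPKM of H3K4me2 and no H3K4me3 peak. The counted window of Pax6 also holds the start of Pax6os1. The part of other cells in any difference was not tested.

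Promoter sequence was read at the annotated TSS, which need not be where transcription starts. It was examined over the 23026 genes with a full window of 300 bp, as a description. The ratio of observed to expected CG dinucleotides had a median of 0.571 over all promoters, 0.780 at genes higher in H3K4me2, and 0.523 at genes higher in H3K4me1. At the 5414 genes with an excess of H3K4me2 of over 1 (log2) it was 0.781, and at the 840 with such an excess of H3K4me1 0.262. Of all genes tested with such an excess (5416 and 840), 1808 and 722 were above 1 RPKM only in the libraries of the higher mark. The filter had fixed the direction of these genes. Genes higher in H3K4me1 were of 2 kinds. Those with H3K4me3 at the promoter (1220) had a median ratio of 0.817, close to the 0.791 of genes with H3K4me3 that were higher in H3K4me2 (7710). Those without (1120) had 0.241. The letters GGGCGG, the GC box bound by Sp1, were found on either strand in 46.2% of all promoters. They were in 65.97% of those higher in H3K4me2 and in 50.7% of those higher in H3K4me1. Among promoters with H3K4me3 these shares were 67.3% and 76.7%, and those higher in H3K4me1 without H3K4me3 had 22.4%. TATAAA, which shares no position with GGGCGG, was found in 12.9% of all promoters. It was in 7.41% of those higher in H3K4me2 and in 10.6% of those higher in H3K4me1. With H3K4me3 the shares were 7.03% and 5.66%, and those higher in H3K4me1 without H3K4me3 had 15.9%. The Hoxa13 window holds GGGCGG, and the Hist2h2ab window holds TATAAA. Among genes without H3K4me3, the difference between the marks was −0.87 at CG ratios under 0.3 (6574 genes), −1.04 from 0.3 to 0.6 (2564), and −0.76 above 0.6 (1107). H3K4me1 thus had the higher median in each, at low levels of both marks.

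Far from start sites, H3K4me1 made up more of the peaks and of their length. The libraries held 101054 ± 19609 H3K4me1 and 66439 ± 4179 H3K4me2 peaks (SD, n = 3, exact permutation p = 0.1). H3K4me2 minus H3K4me1 was −34615 peaks, and −24811 without H3K4me1 library 1. Distal peaks, those more than 5 kb away from any annotated TSS, made up 74.0% ± 1.4 of H3K4me1 and 69.2% ± 1.0 of H3K4me2 peaks, and 72.7% ± 0.92 and 54.1% ± 0.97 of the peak length (exact permutation p = 0.1 each). Widths differed with place. H3K4me2 peaks had a median width of 2896 ± 136 bp within 1 kb of a TSS and 1282 ± 82 bp at 5 to 20 kb, while H3K4me1 peaks had 1400 ± 296 and 1383 ± 377 bp (SD, n = 3). Over all peaks the median widths were not separable, at 1363 ± 373 and 1415 ± 93 bp (exact permutation p = 0.9), and the sign of that difference turned without H3K4me1 library 1.

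The overlap of distal peaks was uneven. Of distal H3K4me2 peaks, 87.3% ± 1.3 overlapped an H3K4me1 peak of the same experiment by at least 1 bp, and of distal H3K4me1 peaks, 54.4% ± 3.5 overlapped an H3K4me2 peak (SD, n = 3 experiments). The latter share was 50.6%, 57.3%, and 55.3% in the experiments and 56.3% without H3K4me1 library 1. The shares have different denominators, and more H3K4me1 peaks were called, so they were not tested against each other. Cut to the 62100 highest-scoring peaks per library, the share was 78.9% for H3K4me2 and 69.7% for H3K4me1. Distance mattered little beyond 5 kb: the share of H3K4me1 peaks with H3K4me2 was 95.9% within 1 kb, 72.0% at 1 to 5 kb, 55.7% at 5 to 20 kb, and 53.2% over 100 kb from a TSS.

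The MACS score of the H3K4me1 peak, in which 10 units are a factor of 10 in p, went with the presence of H3K4me2. From the lowest to the highest quartile of score, 19.5% ± 2.1, 36.0% ± 3.6, 67.3% ± 7.5, and 94.8% ± 3.0 of distal H3K4me1 peaks overlapped H3K4me2 (SD, n = 3). Each experiment rose through all 4 quartiles. Wider peaks also overlapped more often, from 26.8% ± 3.2 in the narrowest to 87.6% ± 4.2 in the widest quartile, where a wider peak also has more room to overlap. Where both were called, the H3K4me2 peak covered a median of 68.6% ± 6.3 of the H3K4me1 peak, and the H3K4me1 peak 99.4% ± 1.0 of the H3K4me2 peak. At 1000 bp from the middle of a distal H3K4me2 peak, H3K4me2 still covered 21.0% and H3K4me1 50.7% of the positions, although at the middle itself H3K4me1 covered 84.3% ± 2.9. At 3000 bp the shares were 10.1% and 22.8%. H3K4me1 peaks also had more length in all, 159.2 to 198.9 Mb per library against 118.5 to 133.0 Mb, and the part of this in the profiles was not tested.

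**Figure D5:**
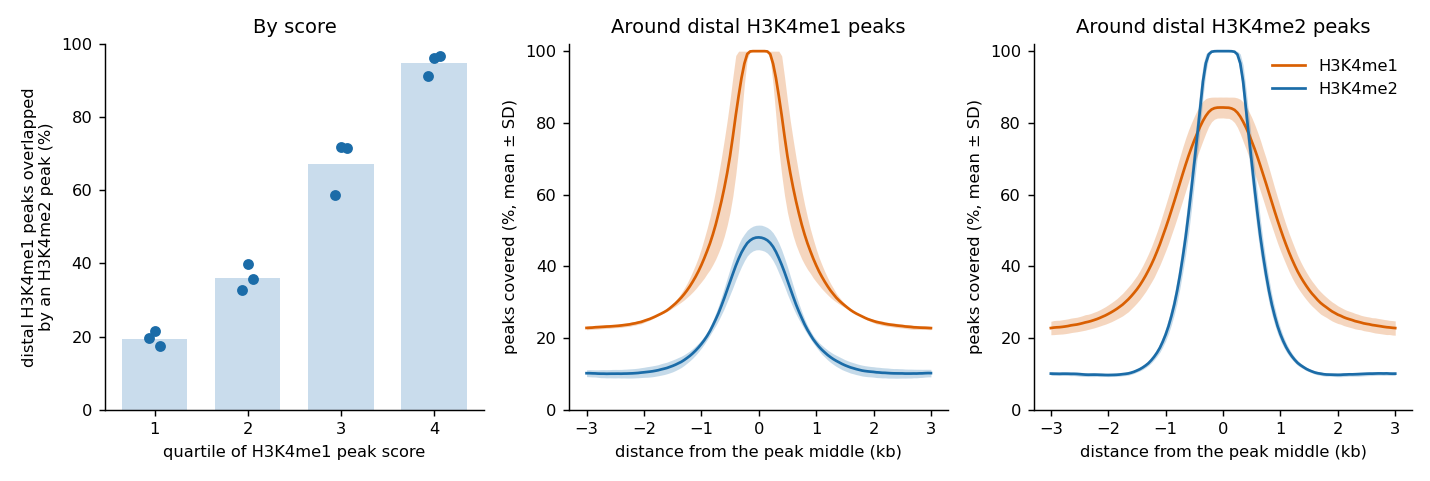
Left, percent of distal H3K4me1 peaks overlapped by H3K4me2 (y axis) by quartile of H3K4me1 peak score (x axis); points are 3 experiments and bars their means, from 19.5% to 94.8%. Middle and right, percent of distal H3K4me1 and H3K4me2 peaks covered by each mark (y axis, mean and SD of 3 libraries) by distance from the peak middle (x axis, kb), where H3K4me1 (orange) reaches further out than H3K4me2 (blue).

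Peaks of the 6 libraries were merged into 84483 distal regions. Both marks were called in all libraries in 27440 (32.5%), of a median width of 2805 bp. H3K4me1 in all 3 and H3K4me2 in none was found in 11016 (13.0%, 1576 bp), and H3K4me2 in all 3 and H3K4me1 in none in 2407 (2.85%, 996 bp). Without H3K4me1 library 1 the counts were 28008, 13768, and 2823, and without H3K4me1 library 2 the regions with H3K4me1 alone numbered 16794. H3K4me3 was called in all 3 of its libraries in 8.25% of the regions with both marks, in 0% of those with H3K4me1 alone, and in 22.1% of those with H3K4me2 alone. Of the 533 regions with H3K4me2 alone and H3K4me3, 45.8% lay within 1 kb of a start in the RefSeq annotation of GRCm38.p6, against 7.47% of all distal regions, although none lay within 5 kb of a start in the authors' tables. A transcript overlapped 60.7% of the regions with H3K4me1 alone, 51.8% with both, and 27.7% with H3K4me2 alone.

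Regions were named by their scores, many of which stand at or near 3100 in these lists. The 3 strongest regions with both marks scored 3100 or more in every library, at the upper end of the score, so that their order is by small differences or ties. They lie at chr12:112575212-112582937, intergenic and 5847 bp from the nearest TSS, that of Inf2, a regulator of actin assembly; at chr2:158164949-158172143, intergenic and 18557 bp from Tgm2, for a transglutaminase of the matrix; and at chr11:94909355-94919643, intergenic and 16627 bp from Col1a1. The last of these carried H3K4me3 in 2 of 3 libraries and the others in none. The strongest with H3K4me1 alone lies at chr12:9050085-9056555, intergenic and 20088 bp from Ttc32, with H3K4me1 scores of 1304, 655, and 1969. It was followed by an intronic region of Abi3bp, a gene of the extracellular matrix, at chr16:56513317-56520593 (scores of 1041, 979, and 1295). The next was an intergenic region 92885 bp from Marcks, at chr10:37231811-37237618 (328, 894, and 1429). The 3 strongest with H3K4me2 alone, at chr13:61803379-61805881, chrX:12134875-12137221, and chr10:82353108-82355960, all carried H3K4me3 in 3 of 3 libraries and overlapped RefSeq exons, of Gm7240, Bcor, and Gm4924. Nearest starts are given as positions and say nothing of which gene a region acts on.

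The middle 300 bp of the first region of each kind are shown on the plus strand of GRCm38, at chr12:112578925-112579224, chr12:9053170-9053469, and chr13:61804480-61804779, with CG dinucleotides in capitals (3, 2, and 7).
Both marks: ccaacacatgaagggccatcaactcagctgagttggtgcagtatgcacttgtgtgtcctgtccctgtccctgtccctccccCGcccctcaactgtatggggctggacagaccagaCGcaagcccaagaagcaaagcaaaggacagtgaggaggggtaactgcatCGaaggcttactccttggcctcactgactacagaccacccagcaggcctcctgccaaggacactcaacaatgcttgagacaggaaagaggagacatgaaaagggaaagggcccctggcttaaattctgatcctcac
H3K4me1 without H3K4me2: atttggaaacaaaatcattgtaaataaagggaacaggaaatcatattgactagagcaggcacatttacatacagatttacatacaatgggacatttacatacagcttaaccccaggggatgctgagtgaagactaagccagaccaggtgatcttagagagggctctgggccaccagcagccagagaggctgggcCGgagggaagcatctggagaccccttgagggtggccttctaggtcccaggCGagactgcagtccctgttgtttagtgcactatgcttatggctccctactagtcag
H3K4me2 without H3K4me1: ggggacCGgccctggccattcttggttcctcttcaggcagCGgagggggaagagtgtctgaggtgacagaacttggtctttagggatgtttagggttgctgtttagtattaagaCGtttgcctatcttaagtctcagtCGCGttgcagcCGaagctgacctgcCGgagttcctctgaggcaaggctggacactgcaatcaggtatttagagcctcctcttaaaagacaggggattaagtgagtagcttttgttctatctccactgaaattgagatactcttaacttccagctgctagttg
None of these holds TGANTCA, the site of AP-1, whose letters read the same on both strands. Over the middle 300 bp of all 84483 distal regions, it was found in 18.02%, in 18.5% of regions with both marks, in 19.2% with H3K4me1 alone, and in 8.77% with H3K4me2 alone. Wide regions have their middle further from either edge, and among regions from 1200 to under 2000 bp wide the shares were 23.2% with both marks (5839 regions) and 20.9% with H3K4me1 alone (5589). The median count of CG dinucleotides was 3 with both marks and with H3K4me1 alone, and 7 with H3K4me2 alone.

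In FC/FC cells, the comparison of the marks gave 8236 genes higher in H3K4me2 and 2243 higher in H3K4me1 of 11110 tested, with a median difference of 1.01 (log2). The interaction of mark and genotype, fitted with limma over 12 libraries and 11637 genes, called 0 genes (0% of those tested), with 692 at an unadjusted p under 0.05 (5.95%). No other tool was run on the interaction. Hoxa13 differed by 4.73 in untreated and 4.89 in FC/FC cells, Rnasek by 4.53 and 4.43, Kmt2d by 1.595 and 1.71, and Cpa1 by −1.79 and −2.06. S100b differed by −1.71 and −2.17 (limma adjusted p of the interaction 0.34), and Loxl2 by −1.16 and −1.51 (0.27). A call that is missing does not show that the differences were equal. One FC/FC library of H3K4me2 carries the catalogue number of the H3K4me1 antibody in its labels, and without it the interaction again called 0 genes, with 900 at an unadjusted p under 0.05.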

How the data were processed

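The authors aligned ChIP-seq reads to mm10 with BWA 0.7.10 (bases called with CASAVA 1.4) and deposited RPKM for RefSeq transcripts with 500 bp added at either end. They called peaks with MACS 1.4.2 against H3, and 10 units of the deposited score are a factor of 10 in p. Of the 52 samples, 15 were used here. Whole reads were recovered from 100% of the RPKM values (tolerance 0.01 read), and limma-voom on them called 8173 genes higher in H3K4me2 and 2448 higher in H3K4me1.

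Transcripts under 250 bp (1352 of 28748) were left out. Genes were tested with limma 3.58.1 in R 4.3.3 on log2(RPKM + 0.1) with a mean-variance trend, checked on simulated libraries. The remaining comparisons used an exact permutation test (two-sided). Python 3.11.15, numpy 2.4.6, and pandas 2.3.3 were used. The members and the 21 gene lists were chosen with earlier results of these data known. Genes named were the 10 with the largest difference in each direction that passed without overlap between the marks and had a mean above 1 RPKM in the lower mark (RefSeq NM transcripts, no Gm or Rik symbols), the members of each list with the largest differences, cell type markers, and Kmt2d. Regions named were the 3 of each kind with the highest scores. Gene levels are from the longest transcript of a symbol. Blacklisted regions were not removed here. The counts of distal regions without each library were chosen after seeing the data.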

Additional observations from a re-analysis of the deposited data

How the results depend on the processing

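Levels were RPKM, which give a mark's distribution and no absolute amount, and 3 libraries of a mark cannot give an exact p below 0.1. The number of genes higher in H3K4me1 was 2414 and became 10622 with no filter, 4138 with libraries centred, and 4399 with quantile normalization. The pseudocounts, the shortest transcript, limma without a trend, and limma-voom left both counts within 1.5 times. Without each library in turn, 8045 to 8137 genes were higher in H3K4me2 and 2356 to 2407 in H3K4me1. The interaction called 0 genes under every alternative, with 555 to 1125 genes at an unadjusted p under 0.05.

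Experiments were matched by the H3 library named with each peak list. Deviations from the group means correlated at 0.39, 0.34, and −0.10 between H3K4me1 and H3K4me2 libraries of experiments 1, 2, and 3. The experiment number was therefore not used to pair libraries in the main gene tests. The overlaps of peaks and the profiles around distal peaks did pair libraries by it, and other pairings were not tried. With the number as a replicate block, 8152 genes were higher in H3K4me2 and 2448 in H3K4me1, and the interaction called 0. H3K4me1 library 3 correlated best with H3K4me2 library 2 (0.24).

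The median difference at genes with H3K4me3, 0.75, was 0.80 with a pseudocount of 0.01, 0.47 with 1, and 0.041 with libraries centred. At genes without H3K4me3, −0.98 became −1.46, −0.24, and −1.69. Without each library they were 0.74 to 0.76 and −1.004 to −0.96.

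With peaks of a score of at least 100, H3K4me2 minus H3K4me1 was −14031 peaks, −137 bp of median width, 23.6 points of promoters, 44.6 of start sites, −8.11 of distal peaks, −21.3 of distal length, and −1.55 of gene bodies. Distal overlap was then 59.6% of H3K4me1 and 84.1% of H3K4me2 peaks. With equal numbers of top-scoring peaks the values were −353 bp, 27.6, 46.0, −19.7 (length), −0.64, 69.7%, and 78.9%; the number of peaks is then fixed by construction. A window of 500 bp gave 23.1 points of promoters, a distance of 2 kb −20.8 points of distal length, and an overlap of 50% of the peak 42.9% and 85.3%. Without each library in turn, peak numbers differed by −44420 to −24811, median width by −149 to 218 bp, promoters by 11.6 to 15.1 points, start sites by 40.1 to 42.3, distal peaks by −5.36 to −3.98, distal length by −19.2 to −18.2, and gene bodies by −3.98 to −2.64. Regions with H3K4me1 alone rose to 16794 without H3K4me1 library 2. The overlaps were 52.9% to 56.3% and 86.6% to 87.8%. The causes of these moves were not tested.

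Of 65 named genes tested, those whose sign turned were Col1a2 (−0.42), Col3a1 (−0.23), Fn1 (−0.14), Kdm2a (−0.047), and Pdgfrb (−0.41) with libraries centred, and Col1a1 (−0.74), Col1a2 (−0.97), Pdgfrb (−0.68), and Prrx1 (−0.63) with quantile normalization. Kdm2a (0.14) and Col3a1 (0.045) lost their calls with quantile normalization, and Myf6, Pax6, and Prrx1 with libraries centred. Col1a2 lost its call with no filter, without H3K4me1 library 1 (0.17) or 2 (0.30) and without H3K4me2 library 2 (0.22) or 3 (0.26), in each case by limma.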
